A study of Mus musculus with 9 samples.

Results

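In freshly isolated mouse muscle stem cells, 95 autosomal protein-coding genes were abundant that were almost lost from the same kind of cell in culture. They were chosen by level alone. Each had a mean normalized read count of at least 500 in the freshly isolated libraries and means of at most 2% of that level both in proliferating cells and in myotubes. Genes with names starting Fos, Egr, Nr4a, Hspa, Ccl, Cxcl, Col or Adamts were left out. The table held 45706 genes, and 4887 autosomal protein-coding genes with allowed names reached 500 in freshly isolated cells, so the 95 made up 1.94% of those. The difference between freshly isolated and cultured cells is therefore the selection itself and is described here without a test. The difference between the cultured stages was not used to choose the genes, and it was tested where both cultured stages held enough reads.

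Satellite cells are the stem cells of skeletal muscle. At rest they lie quiescent between the muscle fibre and the basement membrane around it, and they build part of that matrix themselves. After injury or in culture they enter the cell cycle as myoblasts, and on withdrawal of growth factors they fuse into myotubes.

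The samples came from wild-type C57Bl6 mice aged 12 to 20 weeks, with 3 samples per stage from different animals and 9 libraries in all. Freshly isolated cells were purified from muscle. Proliferating cells were grown for at least 3 days in DMEM and Ham F-10 containing 20% FCS (fetal calf serum) and human FGF-2 at 2.5 ng/ml, a growth factor that keeps myoblasts dividing. Myotubes were obtained after 6 further days in DMEM with 2% horse serum. The isolation is labelled as purification of satellite cells, and the labels do not say how many animals went into a sample.

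Values are normalized read counts, that is, reads per gene after scaling to make libraries comparable and rounding to integers. They summed to 20.1 to 26.2 M per freshly isolated library and 17.8 to 20.8 M per cultured library. From the spacing of low values, 1 read was worth an estimated 1.04 to 2.18 units in the freshly isolated and 0.747 to 0.938 units in the cultured libraries, so a value of 1 in culture was about 1 read. Freshly isolated library 1 stood apart from the other two. A single non-coding gene, Gm26917, held 22.2% of its total, against 10.6 and 11.2% in libraries 2 and 3, and its estimated depth was 12.0 M reads against 19.3 M in each of those.

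The 95 genes together took 2.24, 2.54 and 2.66% of all normalized reads in the 3 freshly isolated libraries, and 2.88, 2.84 and 3.00% with Gm26917 left out of the total. In proliferating libraries they took 0.0134 to 0.0166% and in myotube libraries 0.0123 to 0.0135%. None was listed at 0 in a freshly isolated library, while 9 to 15 were listed at 0 in each proliferating and 8 to 10 in each myotube library. The median gene kept 0.415% of its freshly isolated level in proliferating cells and 0.524% in myotubes, and 59 genes were below 1% in both. In bulk RNA, fewer cells with a transcript and less of it per cell cannot be told apart.

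**Figure D1:**
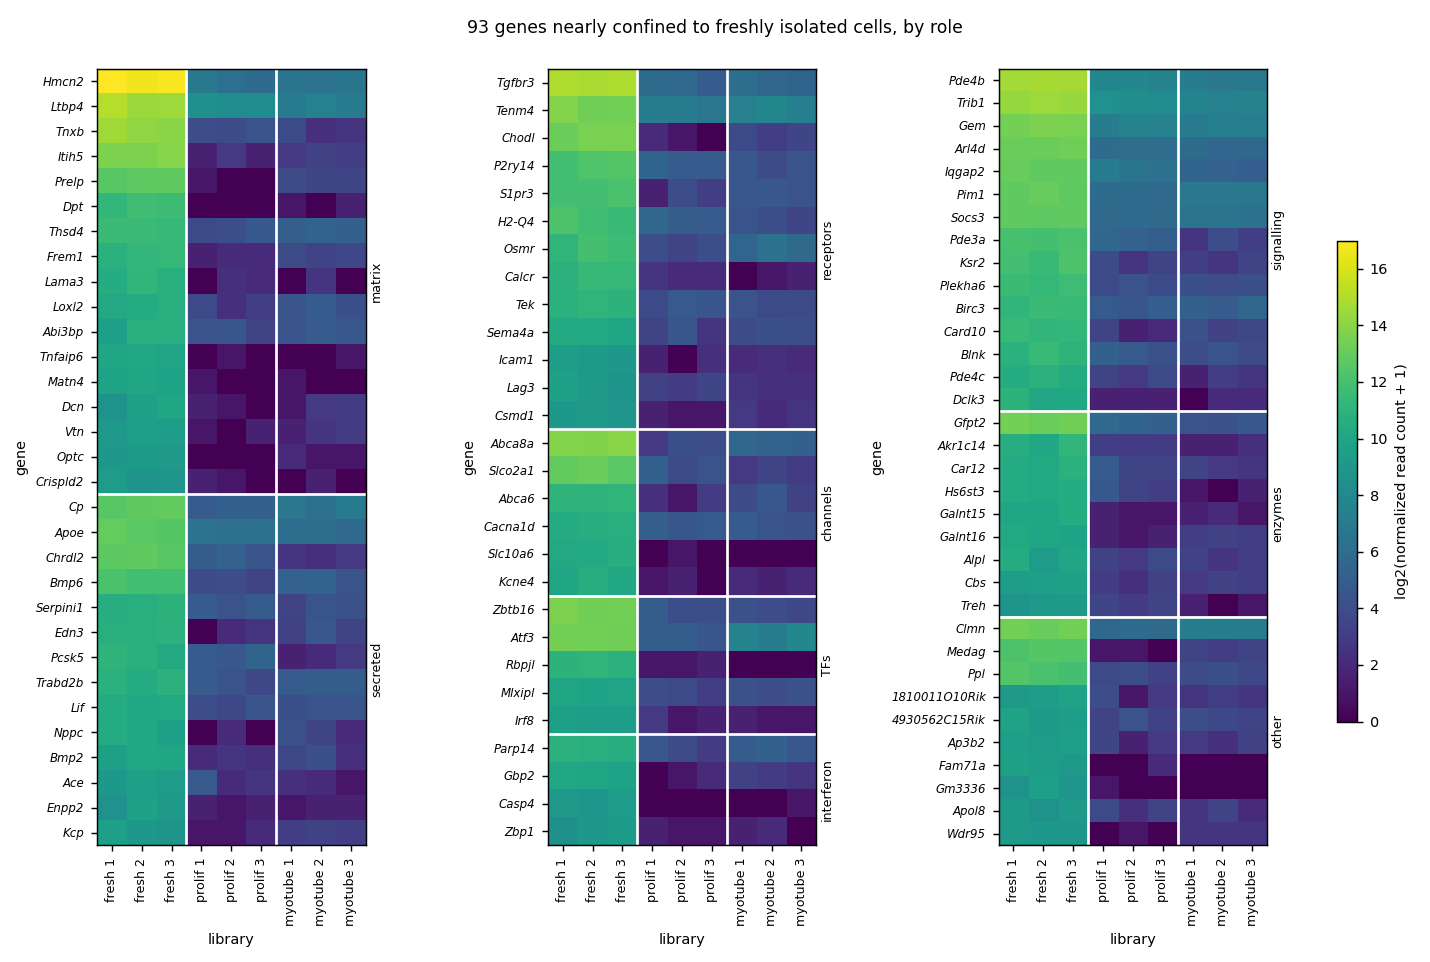
Normalized read counts of 93 of the 95 genes (rows) in the 9 libraries (columns), as log2(value + 1), grouped by role. Within each row the freshly isolated columns are brighter than the 6 cultured columns, which the selection requires. Freshly isolated means run from 516 to 125537. Between rows the colours overlap, as with Trib1 at 389 in proliferating library 1 and Zbp1 at 375 in freshly isolated library 1.

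Medag and Itih5 mark the group. Medag (mesenteric estrogen-dependent adipogenesis protein, known to promote fat cell formation) had 4798, 5733 and 5645 normalized reads in freshly isolated cells. It had 1, 1 and 0 in proliferating cells and 10, 8 and 10 in myotubes, which is 0.0124% and 0.173% of the freshly isolated mean. Its cultured stages did not overlap, although both were a few reads deep. Itih5 (inter-alpha-trypsin inhibitor heavy chain H5, of a family of secreted proteins that bind hyaluronan) had 12670, 12581 and 15175 in freshly isolated cells. It had 2, 6 and 2 in proliferating cells and 6, 9 and 8 in myotubes, or 0.0247% and 0.0569%. Per kb of exon, Medag stood at 1363 and Itih5 at 1706 in freshly isolated cells, both well above the median of 413 over the 95 genes.

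The bases just upstream of the annotated RefSeq starts of both marker genes are shown because the CpG content of the promoters is compared below. The stretches are from GRCm38.p6, 5′ to 3′ on the strand of the gene, and capitals mark each CG dinucleotide. The Medag stretch is chr5:149411629-149411748 (plus strand) and ends at the base before the start, and that of Itih5 is chr2:10153423-10153542 (plus strand).
Medag: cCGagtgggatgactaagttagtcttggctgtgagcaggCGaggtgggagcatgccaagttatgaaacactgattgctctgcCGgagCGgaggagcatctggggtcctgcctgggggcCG
Itih5: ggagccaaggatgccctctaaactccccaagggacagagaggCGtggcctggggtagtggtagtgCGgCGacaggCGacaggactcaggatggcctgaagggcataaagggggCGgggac
Each window holds 5 CG in 120 bases.

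Genes of the extracellular matrix and basement membrane were the largest group, with 17 of the 95. Their median level in culture was 0.116% of the freshly isolated mean in proliferating cells and 0.173% in myotubes. Hmcn2 (hemicentin-2, a very large matrix protein of the immunoglobulin superfamily) had 155528, 101991 and 119091 normalized reads in freshly isolated cells. It had 109, 73 and 61 in proliferating cells and 94, 90 and 95 in myotubes, and with 7810 per kb it was the highest of the 95 also per exon length. Ltbp4, which binds latent TGF-beta and helps to assemble elastic fibres, went from 35261, 22212 and 22943 to 372, 303 and 303 and to 129, 177 and 127. Tnxb (tenascin-X, a matrix glycoprotein that binds collagen) had 24577, 18478 and 16419 against 15, 14 and 19 and 13, 4 and 5. All 3 of these genes were highest in freshly isolated library 1.

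The small leucine-rich proteoglycans and their partner dermatopontin formed a second matrix set. Prelp (prolargin, which links basement membranes to the tissue beneath) had 6275, 7188 and 7322 in freshly isolated cells, 1, 0 and 0 in proliferating cells and 14, 11 and 11 in myotubes. Dpt (dermatopontin, which binds decorin) had 2449, 3554 and 3249, then 0 in all proliferating libraries and 1, 0 and 2 in myotubes. Dcn (decorin, a regulator of collagen fibrils) had 405, 840 and 1006, then 2, 1 and 0, then 1, 6 and 7. Its values in freshly isolated cells were the most scattered of all 95 genes (CV 41.4%), with library 1 at 0.439 of the mean of the other two. Opticin (Optc), a neighbour of Prelp on chromosome 1, had 532, 607 and 577, then 0 in all proliferating libraries and 3, 1 and 1 in myotubes.

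Other genes of the family did not all share this pattern. Against freshly isolated cells, 4 of the 8 testable proteoglycan genes outside the 95 were lower in proliferating cells and 2 were higher (limma, Benjamini-Hochberg adjusted p below 0.05). Among all 17291 genes tested, 35.7% were lower and 37.6% higher. The same shares are the background for the list counts in the paragraphs below. These lists were chosen with earlier results of these data known, and no list was tested as a set. Osteoglycin (Ogn), a small proteoglycan of bone and muscle, had 2072, 4009 and 3585 in freshly isolated cells and only 106, 191 and 155 in proliferating cells. In myotubes it was back at 2984, 2779 and 2946. Biglycan (Bgn) had group means of 2774, 1600 and 3529.

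The hyaluronan genes were split as well. Tnfaip6 (TSG-6, the enzyme that transfers inter-alpha-inhibitor heavy chains onto hyaluronan) belonged to the 95, with 1083, 1121 and 964 in freshly isolated cells and 0 or 1 in every cultured library. Of 9 testable genes of this list outside the 95, 5 were higher and 3 lower in proliferating cells. The hyaluronan receptor Cd44 had a mean of 4969 in freshly isolated and 9756 in proliferating cells, a log2 difference of 0.99 ± 0.13 (SE; limma adjusted p = 6.35e-05). The hyaluronan synthase Has1 went the other way, from 1296 to 83, a log2 difference of -3.95 ± 0.17 (limma adjusted p = 2.42e-08). Among 28 testable elastic fibre and basement membrane genes outside the 95, 15 were lower and 6 higher in proliferating cells. Perlecan (Hspg2) and laminin gamma-1 (Lamc1) were among the lower ones but kept far more, with means of 39551 against 15755 and of 17136 against 3416.

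Further matrix genes among the 95 were Thsd4, Frem1, Lama3, Loxl2, Abi3bp, Matn4, Vtn and Crispld2. Frem1 helps to anchor basement membranes, Lama3 is a laminin chain and Loxl2 cross-links collagen. Their freshly isolated means ran from 528 (Crispld2) to 2932 (Thsd4). Abi3bp, a matrix protein, lay close to the upper limit in myotubes with 780, 1628 and 1632 against 19, 22 and 10 and 21, 28 and 23, or 1.78%.

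Among 15 genes of secreted ligands, modulators and enzymes, 4 belong to BMP signalling. BMPs are ligands of the TGF-beta family that in muscle stem cells act on growth and differentiation. Bmp6 had 4388, 3680 and 3715 normalized reads in freshly isolated cells, 14, 15 and 10 in proliferating cells and 40, 41 and 20 in myotubes. Bmp2 had 793, 1164 and 1018, then 3, 5 and 4, then 12, 17 and 4. The extracellular modulators Chrdl2 (chordin-like 2, an antagonist) and Kcp (kielin/chordin-like protein) were in the group too. Chrdl2 had 6756, 7260 and 6259 in freshly isolated cells, 32, 40 and 21 in proliferating cells and 5, 4 and 6 in myotubes. The co-receptor Tgfbr3 (betaglycan, which presents TGF-beta ligands) had 32449, 29101 and 31356, then 63, 56 and 30, then 70, 49 and 44.

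Several cytokine and peptide genes shared the pattern. Lif (leukemia inhibitory factor) had 1392, 1183 and 1259 in freshly isolated cells and 12 to 21 in the 6 cultured libraries. Osmr, the oncostatin M receptor of the same cytokine family, had 2207, 4117 and 3204, then 15, 10 and 16, then 46, 79 and 57. Socs3, the feedback inhibitor of these receptors, had the narrowest spread of all 95 genes, with 7323, 7146 and 7341 in freshly isolated cells (CV 1.48%). It had 58, 61 and 57 in proliferating cells and 91, 93 and 80 in myotubes, so that its cultured stages did not overlap. Pim1, a kinase gene switched on by cytokine signals, had 7273, 8577 and 6896, then 62, 63 and 54, then 108, 108 and 109.

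Edn3 (endothelin-3) and Nppc (C-type natriuretic peptide) are small secreted peptides. Edn3 had 1582, 1696 and 1966 in freshly isolated cells, 0, 3 and 5 in proliferating cells and 9, 23 and 10 in myotubes. Nppc had 1399, 1149 and 822, then 0, 3 and 0, then 18, 11 and 3, so that its cultured stages overlapped at 3. The plasma-type proteins Cp (ceruloplasmin, a copper ferroxidase) and Apoe (a lipid carrier) had freshly isolated means of 7004 and 6825. Apoe kept 1.16% in proliferating cells and 0.947% in myotubes. Of 55 testable ligand genes outside the 95, 25 were lower and 21 higher in proliferating cells, beside 35.7% and 37.6% of all genes tested. Vegfa, the main vascular growth factor, had group means of 5749, 3823 and 1460, and Tgfb2 had 3855, 501 and 2015.

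The processing and modifying enzymes of this group were Pcsk5, Ace, Enpp2 and Trabd2b. Pcsk5, a protease that activates secreted precursors, sat nearest to the limit in proliferating cells. It had 2159, 1798 and 1279 in freshly isolated cells, 30, 24 and 43 in proliferating cells (1.85%) and 2, 3 and 6 in myotubes (0.210%). Enpp2 (autotaxin, which makes lysophosphatidic acid) had 394, 854 and 555 and no more than 2 in any cultured library.

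The 13 receptors and surface proteins included 3 established satellite cell genes, besides Chrdl2 above. Calcr (the calcitonin receptor, known to hold satellite cells quiescent) had 1935, 2711 and 2558 in freshly isolated cells, 5, 3 and 3 in proliferating cells and 0, 1 and 2 in myotubes. Chodl (chondrolectin, a membrane lectin) had 9332, 12358 and 12157, then 3, 1 and 0, then 13, 8 and 11. Tenm4, a teneurin adhesion protein, had 14395, 10153 and 10547, then 148, 142 and 99, then 172, 218 and 163. Among the other 16 of the 20 satellite cell markers on the list, 13 were lower and 1 was higher in proliferating cells, with a median log2 difference of -2.07 beside 0.07 over all genes tested. Pax7, the transcription factor that defines satellite cells, had 15700, 11694 and 12892 in freshly isolated cells and 3330, 2668 and 2556 in proliferating cells.

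With Calcr, P2ry14 and S1pr3 made 3 G protein-coupled receptors of this list among the 95. P2ry14, a receptor for UDP-sugars, had 3741, 5061 and 5601 in freshly isolated cells, 43, 30 and 29 in proliferating cells and 23, 14 and 20 in myotubes. S1pr3, a receptor for sphingosine 1-phosphate, had 3891, 3925 and 4351, then 2, 15 and 8, then 23, 23 and 19. Tek, the angiopoietin receptor Tie2, had 1815, 2190 and 2045, then 13, 26 and 22, then 19, 13 and 13. Icam1, a leukocyte adhesion ligand, had 752, 626 and 535 and at most 4 in each cultured library. Of 50 testable receptors of the G protein-coupled list outside the 95, 29 were lower and 14 higher in proliferating cells, and of 41 receptor tyrosine kinases and cytokine receptors 25 were lower and 10 higher.

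Transport across membranes was represented by 6 genes. Abca8a and Abca6, neighbouring lipid transporter genes of the ATP-binding cassette family on chromosome 11, had freshly isolated means of 14813 and 2156. Abca8a had 6, 17 and 15 in proliferating cells and 48, 42 and 37 in myotubes, and Abca6 had 4, 1 and 7 and then 14, 24 and 9. Another gene of that family, Abca8b, missed the selection in myotubes only. It had a mean of 12414 in freshly isolated cells, 34.7 in proliferating cells and 380 in myotubes. Slco2a1, the prostaglandin transporter, had 7632, 8941 and 6545, then 36, 13 and 20, then 6, 10 and 7. Kcne4 and Cacna1d encode subunits of potassium and calcium channels, and Slc10a6 carries sulfated steroids. Of the 39 testable channel and transporter genes outside the 95, 25 were lower and 10 higher in proliferating cells.

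The 16 intracellular signalling genes kept a median of 0.832% of their freshly isolated level in proliferating cells and 0.552% in myotubes. Among them were 3 phosphodiesterases, enzymes that break down cyclic AMP or GMP. Pde4b had 25531, 27691 and 26980 in freshly isolated cells, 246, 249 and 193 in proliferating cells and 141, 105 and 118 in myotubes. Pde3a had 4216, 3971 and 4414, then 48, 40 and 35, then 5, 15 and 8. Pde4c was lower, with a freshly isolated mean of 1606. Trib1 (a pseudokinase that directs protein degradation) had 20308, 23485 and 21114, then 389, 344 and 304, then 199, 178 and 195. Gem and Arl4d, small GTPases, were among the highest per exon length with 5814 and 6842 per kb. Arl4d was also 1 of the 3 most even genes in freshly isolated cells, with 9242, 9296 and 9831 (CV 3.44%). Iqgap2, a scaffold of the actin cytoskeleton, had a mean of 7738 in freshly isolated cells and had 122, 96 and 83 in proliferating cells and 44, 39 and 33 in myotubes.

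Of 5 transcription factors, Atf3 (4984 per kb) and Zbtb16 (2148 per kb) were the highest per exon length in freshly isolated cells. Zbtb16 (PLZF, a repressor known from stem cells of other tissues) had 12990, 10163 and 10894 in freshly isolated cells, 31, 16 and 16 in proliferating cells and 18, 15 and 12 in myotubes. Atf3, a stress-induced factor of the ATF family, had 11389, 10775 and 10041, then 32, 32 and 22, then 197, 142 and 247. Irf8, a factor best known from blood cells, had 763, 692 and 714 and at most 6 in culture. Of 86 testable transcription factors on the list outside the 95, 66 were lower and 14 higher in proliferating cells, a median log2 difference of -2.51.

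Atf3, Socs3 and Trib1 are also early response genes, which rise within minutes to hours of stress. The other genes of that list moved with the group. Of 44 tested outside the 95, 40 were lower and 3 higher in proliferating cells, with a median log2 difference of -3.71. The heat shock gene Hsph1 had a mean of 83800 against 7036, and Jun of 35181 against 4835. The 10 genes that met the same thresholds but were left out by name were Hspa1a, Hspa1b, Fos, Fosb, Egr1, Egr2, Egr3, Nr4a1, Nr4a3 and Cxcl1. Fosb had 92566, 68836 and 65159 in freshly isolated cells and at most 18 in culture. Transcripts present in resting muscle and transcripts switched on during isolation cannot be told apart in this design, since every library came from isolated cells.

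The remaining genes were 9 enzymes of metabolism and glycosylation, 4 genes of interferon response and cell death, and 10 others. Gfpt2, the entry enzyme of the hexosamine pathway, had 11110, 9081 and 10094 in freshly isolated cells, 54, 44 and 36 in proliferating cells and 19, 18 and 23 in myotubes. Hs6st3, which adds sulfate to heparan chains, had 1399, 1275 and 1451, then 25, 10 and 8, then 1, 0 and 2. Treh, which splits the sugar trehalose, had 436, 599 and 576, then 11, 7 and 10, then 2, 0 and 1. Clmn (calmin, an actin-binding membrane protein) had 10480, 8565 and 10609, then 53, 61 and 57, then 146, 138 and 146. The interferon-related genes were Parp14, Gbp2, Casp4 and Zbp1, of which Casp4 was listed at 0 in 5 of the 6 cultured libraries. For a few of these loci reads may be split with near copies or overlapping genes. These are H2-Q4, Akr1c14, Gm3336 and Apol8, and the overlapping pair Matn4 and Rbpjl.

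The selection limits cut through a continuum. Zbp1 (516), Wdr95 (526) and Crispld2 (528) were just above the level required in freshly isolated cells, and Mpzl2 (497), Adh1 (475) and Necab2 (468) just below it. In proliferating cells, Pcsk5 (1.85%) and Cacna1d (1.82%) were just inside the limit, and Fam132b (2.32%), Tshz2 (2.47%) and Gm10382 (2.66%) just outside. In myotubes, Osmr (1.91%), Atf3 (1.82%) and Abi3bp (1.78%) were just inside, and Scn7a (2.16%), Tmem184a (2.19%) and Zfp36 (2.21%) just outside. A further 48 genes met the limit in proliferating cells only and 36 in myotubes only.

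Between the cultured stages, a test was read for 47 of the 95 genes. These had a value of 10 or more in at least 3 of the 6 cultured libraries, with both stages among the libraries that reached it. Of the 47, 14 (29.8%) were higher in myotubes than in proliferating cells, 10 (21.3%) were lower and 23 did not pass (limma on log2(value + 1), adjusted p below 0.05 over all genes). Among the 14424 genes that meet the same condition, 29.8% were higher and 27.6% lower, and among all 17291 in the model 28.6% and 25.5%. With all library totals set equal, 12 of the 47 were higher and 14 lower. The other 48 are described by their values alone. Of these, 44 entered the model only through their freshly isolated libraries. The remaining 4 reached 10 in 1 cultured stage only and so had to differ: Prelp and Frem1 in myotubes, Chrdl2 and Pcsk5 in proliferating cells.

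**Figure D2:**
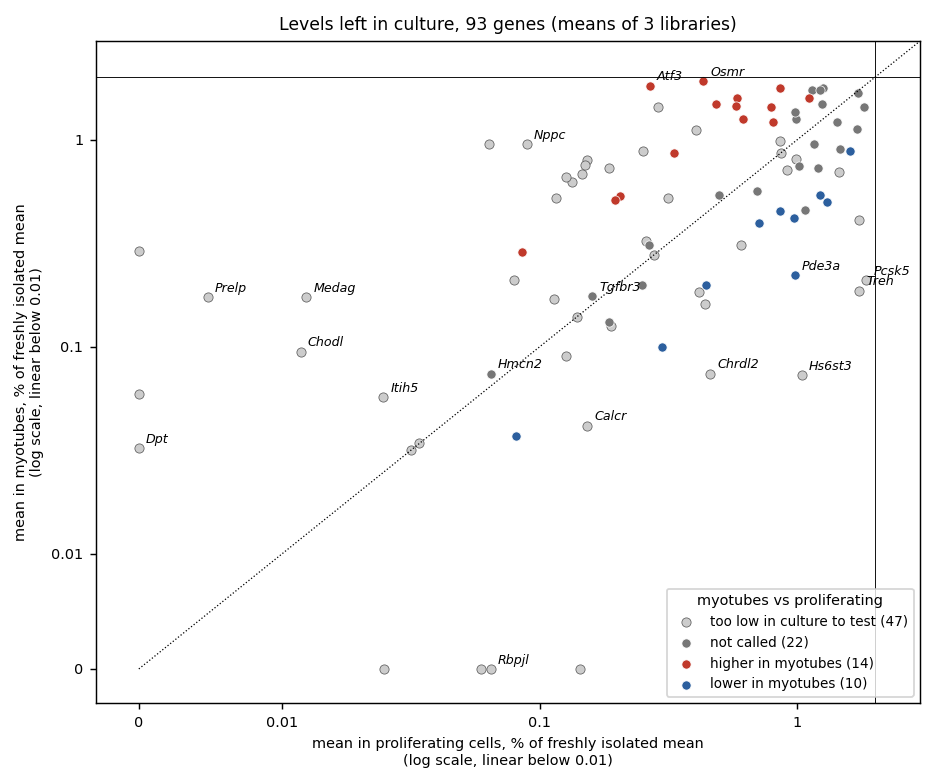
Mean level in proliferating cells (x axis) and in myotubes (y axis) of 93 of the 95 genes, in percent of its freshly isolated mean, on scales that are logarithmic above 0.01 and linear below. Thin lines mark the 2% limit of the selection and the dotted line equal levels. Colours mark the tested genes drawn (14 higher in myotubes, red; 10 lower, blue; 22 that did not pass, dark grey), and pale points are 47 genes too low in culture to test.

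Among the genes higher in myotubes, Atf3 combined a large change with enough reads. Its log2 difference was 2.71 ± 0.21 (SE, n = 3 against 3; limma adjusted p = 4.45e-06), and every myotube library lay above every proliferating one. Osmr rose by 2.06 ± 0.29 (limma adjusted p = 0.000195), Clmn by 1.32 ± 0.12 (limma adjusted p = 1.17e-05) and Cp by 1.56 ± 0.21 (limma adjusted p = 0.000124), from 29, 37 and 36 to 104, 76 and 133. Abca8a rose by 1.77 ± 0.31 and Bmp6 by 1.26 ± 0.29, both without overlap. Smaller rises were those of Pim1, 0.85 ± 0.13, and Socs3, 0.57 ± 0.11. These SEs come from the model of all 9 libraries. In a model of the cultured stages alone they were 0.25 for Atf3, 0.16 for Pim1 and 0.16 for Socs3.

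Some of the rises moved with 1 library. S1pr3 rose by 1.58 ± 0.49 (limma adjusted p = 0.0199), by 0.91 without proliferating library 1, and missed the threshold without myotube library 1 or 2 (limma adjusted p = 0.0554 in both). Tenm4, with a difference of 0.51 ± 0.19 (limma adjusted p = 0.0451), missed it without any 1 of 7 libraries, at up to 0.168, and also with equal library totals or no filter on low values. In proliferating cells, S1pr3 (2, 15 and 8), Loxl2 (13, 4 and 8) and Card10 (10, 2 and 3) each reached 10 in a single library. They met the condition for testing mainly through the myotube libraries, where they are higher, so that condition favoured a rise.

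The 10 genes lower in myotubes included 4 of the signalling genes, Trib1, Pde4b, Pde3a and Iqgap2. Pde3a fell by 2.13 ± 0.32 on the log2 scale (limma adjusted p = 0.000275). Slco2a1, Iqgap2 and Ltbp4 fell by 1.38, 1.34 and 1.18. In myotubes, Slco2a1 (6, 10 and 7), Pde3a (5, 15 and 8) and Tnxb (13, 4 and 5) each reached 10 in a single library. They met the condition for testing mainly through the proliferating libraries, where they are higher, so that condition favoured a fall. Pde4b fell by 0.91 ± 0.14 and Trib1 by 0.85 ± 0.11, both without overlap. Tnxb fell by 1.17 ± 0.36 (limma adjusted p = 0.0177) and missed the threshold without proliferating library 3 (0.0613), myotube library 2 (0.0646) or myotube library 3 (0.0638).

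By role, 14 of the 16 signalling genes were tested, of which 3 were higher and 4 lower. Of 8 receptor and surface genes tested 3 were higher and 2 lower, and of 6 matrix genes 2 and 2. Of 6 secreted genes tested 2 were higher and none was lower. Chrdl2 (32, 40 and 21, then 5, 4 and 6) and Pcsk5 (30, 24 and 43, then 2, 3 and 6) have the same role but were not tested. Beside these counts stand 29.8% higher and 27.6% lower among the 14424 genes that meet the same condition. Whether the roles differ in their shares of higher and lower genes was not tested. The most abundant gene, Hmcn2, did not pass (log2 difference 0.24 ± 0.21), nor did Tgfbr3 (0.17 ± 0.26), Gem (-0.22 ± 0.13), Arl4d (-0.31 ± 0.14), Zbtb16 (-0.41 ± 0.27) or Apoe (-0.29 ± 0.16).

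**Figure D3:**
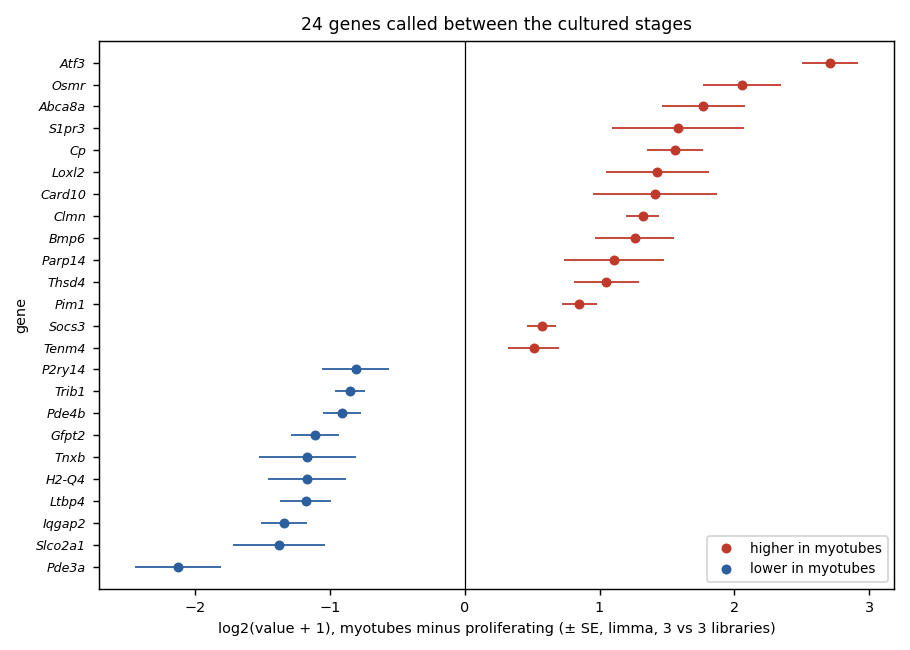
Differences in log2(value + 1) between myotubes and proliferating cells for the 24 tested genes that passed (14 higher, red; 10 lower, blue). Bars are SEs from the model of all 9 libraries. Atf3 at 2.71 and Pde3a at -2.13 are the extremes.

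The freshly isolated libraries differed among themselves in these genes. The coefficient of variation over the 3 libraries had a median of 14.7% for the 95 genes and 12.0% for the 4887 genes of the same level. Library 1 was at 0.75 or less of the mean of the other two for 17 of the 95 (17.9%), beside 10.7% of the 4887, and at 1.33 or more for 14 (14.7%), beside 16.2%. Low in library 1 were Dcn (0.439), Abi3bp (0.479), Enpp2 (0.559) and Osmr (0.603). High in it were Dclk3 (1.77), Alpl (1.72), Lag3 (1.71), Ltbp4 (1.56) and Kcp (1.54). After Dcn, the widest spreads were those of Enpp2 (CV 38.8%) and Alpl (CV 38.0%), and after Socs3 and Arl4d the narrowest was that of Abca6 (CV 3.87%).

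Markers of other cells were looked at in the same libraries, since Dpt and Dcn are also known from fibro-adipogenic progenitors, the connective tissue cells of muscle. Of the 20 fibro-adipogenic markers, all were found in the table and none was at 0 in all freshly isolated libraries. Some were low there, with 4, 5 and 9 for Pdgfra, 0, 5 and 6 for Ly6a and 13, 24 and 31 for Pi16. Others were not, such as Dpt and Dcn with means of 3084 and 750. Lum, a proteoglycan of these cells, had 0, 31 and 44, and like Dcn it was lowest in library 1. The summed list stood at 42757 to 52031 in freshly isolated, 8308 to 9211 in proliferating and 10742 to 12020 in myotube libraries. Most of that came from Gsn, Fbn1, Tcf4 and Col15a1. Among the 12 testable markers outside the 95, 8 were lower and 1 higher in proliferating cells. The part of such cells in the levels of Dpt and Dcn was not tested.

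Other lists were small in freshly isolated cells. The 12 endothelial markers summed to 339 to 425 and the 12 leukocyte markers to 703 to 818, with the macrophage genes Adgre1 and C1qa listed at 0 in all 3 libraries and Cd68 at 549, 629 and 621. Schwann cell markers summed to 1096 to 1686, tenocyte markers to 295 to 386, adipocyte markers to 55 to 195 and erythroid markers to 15 to 23. Adult myofibre markers summed to 3175 to 4195, against 392792 to 535230 in myotubes. The pericyte list reached 32747 to 42906, most of it Des, which satellite cells also express. Tek, also known as an endothelial gene, alone had 1815 to 2190, while the endothelial marker Pecam1 had 59, 155 and 128. The part of endothelial cells in the level of Tek was not tested.

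**Figure D4:**
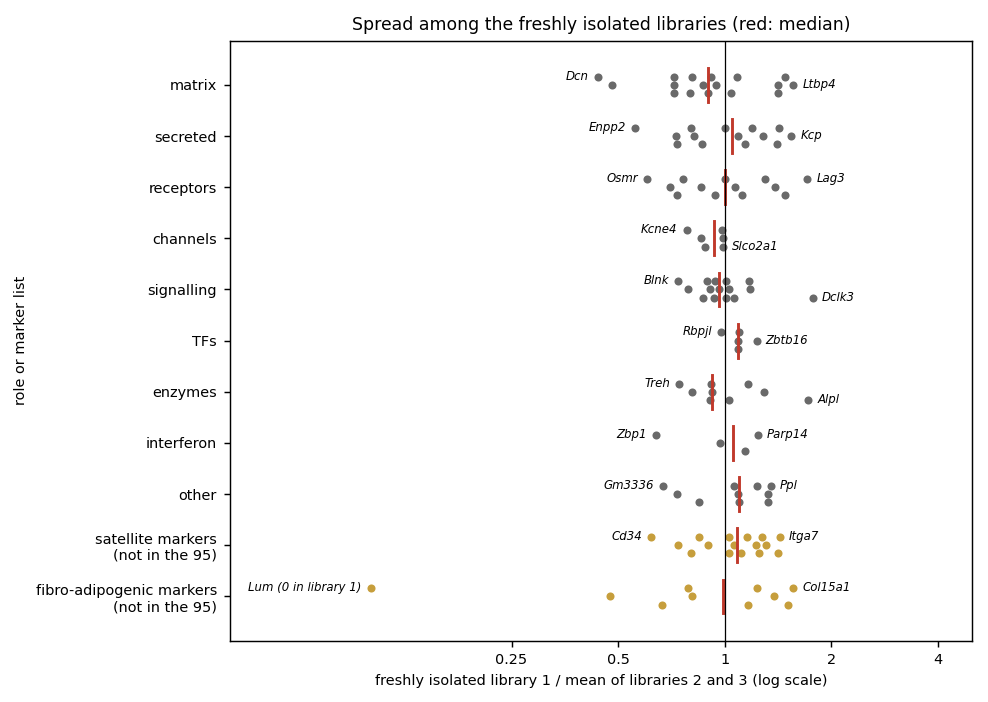
Level in freshly isolated library 1 divided by the mean of libraries 2 and 3 (log scale), for 93 of the 95 genes by role and for satellite cell and fibro-adipogenic markers outside the 95 with a mean of at least 20. Red bars are medians (0.899 for matrix genes, 1.09 for satellite cell markers), the lowest and highest gene of each row are named, and Lum, listed at 0 in library 1, is drawn at the left.

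The 95 genes lay on all 19 autosomes, with no more than 9 on any 1 (chromosomes 1 and 9). There were 10 pairs of neighbouring members less than 1 Mb apart. Optc and Prelp lie 2.30 kb apart on the same strand of chromosome 1, Abca8a and Abca6 80.8 kb apart on chromosome 11, and Medag and Wdr95 97.0 kb apart on chromosome 5. Fam71a lies 5.48 kb downstream of the 3′ end of Atf3 on the same strand, and Gm3336 lies 1.08 kb from Pde4c. Matn4 and Rbpjl overlap by 2.02 kb on opposite strands of chromosome 2 and share 149 exon bases. Whether counting used strand is not known here, so reads in that stretch cannot be assigned to either gene.

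The nearest protein-coding genes on both sides, members left out, were compared in the same way. Of 128 such neighbours tested, 69 (53.9%) were lower in proliferating cells and 74 (57.8%) in myotubes than they were after isolation. Among all autosomal protein-coding genes tested these shares were 34.4% and 35.5%. Higher were 36 neighbours (28.1%) in each comparison, beside 43.1% and 45.2%. Over genes of every type tested, 40.2% were higher and 37.3% lower in myotubes. Both comparisons share the freshly isolated libraries, and the difference between neighbours and other genes was not tested.

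A RefSeq start with its upstream sequence (GRCm38.p6) was at hand for 71 of the 95 genes, for 62 of them within 500 bases of the start annotated in GENCODE. In the 250 bases before the start, the ratio of observed to expected CG dinucleotides had a median of 0.406 for these genes. It was 0.724 for 10006 tested autosomal protein-coding genes and 0.798 for the 3797 of them that reached 500 in freshly isolated cells. A ratio of 0.6 or more, as in CpG islands, was found for 22 of the 71 (31.0%), beside 66.5% and 79.1%. The median GC content was 57.2%, beside 60 and 62.8%. Tnxb (0.235), Prelp (0.283) and Itih5 (0.327) were below the median of the group. Medag (0.530) was above it, as were Pim1 (0.856), Arl4d (0.867) and Irf8 (1.03).

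**Figure D5:**
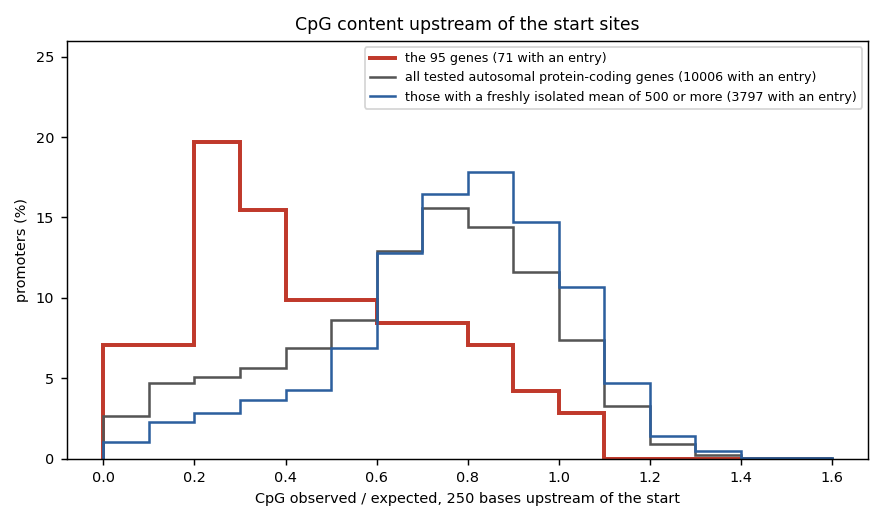
Distribution of the observed over expected CG ratio in the 250 bases upstream of the start, in percent of promoters, for the 71 of the 95 genes with an entry, for all tested genes and for those reaching 500 in freshly isolated cells. The group peaks at 0.2 to 0.3 (14 of 71), the other sets above 0.7.

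As an example of a member with a high ratio, the stretch upstream of Arl4d is shown (chr11:101665421-101665540, plus strand), again with each CG in capitals.
Arl4d: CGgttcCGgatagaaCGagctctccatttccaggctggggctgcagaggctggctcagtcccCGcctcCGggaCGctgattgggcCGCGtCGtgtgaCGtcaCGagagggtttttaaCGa
It holds 12 CG in 120 bases. Over the whole 250 bases, the upstream window held 16 CG in Arl4d, 12 in Medag and 7 in Itih5.

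Short sequence motifs were counted on both strands of the same 250 bases. The AP-1 motif TGANTCA, bound by Fos and Jun proteins, was in 9 of the 71 (12.7%), beside 4.22% of all tested promoters and 3.77% of those reaching 500. The E-box CANNTG, of which myogenic factors bind a subset, was in 74.6% beside 57.1%. The STAT motif TTCNNNGAA was in 11.3% beside 5.69% and the TATA box TATAAA in 9.86% beside 6.34%. The GC box GGGCGG was in 39.4% beside 59.3%, and CCAAT in 28.2% beside 35.8%. The cAMP response element TGACGTCA was in 1 of the 71 (1.41%, beside 2.77%), the NF-kB motif in 9.86% beside 5.91%, and the serum response element in none, beside 1.16%. Matches of different motifs may share bases. The promoter sets differ in base composition, as given above, and no test of these shares was made.

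The AP-1 matches lay in the promoters of Galnt15, Tnxb, Hmcn2, Gbp2, Tnfaip6, Cp, P2ry14, Gfpt2 and Lif. Stretches of 60 bases around 4 of them are shown, for the 3 matrix genes of the set and for Cp, which rose in myotubes. Capitals mark the motif, 5′ to 3′ on the strand of the gene. They are chr2:31314212-31314271 for Hmcn2, chr17:34670455-34670514 for Tnxb, chr2:52037943-52038002 for Tnfaip6 and chr3:19956854-19956913 for Cp, all on the plus strand of GRCm38.p6.
Hmcn2: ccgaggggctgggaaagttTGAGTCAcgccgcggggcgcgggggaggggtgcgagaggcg
Tnxb: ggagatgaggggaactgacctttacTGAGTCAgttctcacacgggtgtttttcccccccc
Tnfaip6: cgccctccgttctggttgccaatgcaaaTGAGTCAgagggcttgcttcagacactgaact
Cp: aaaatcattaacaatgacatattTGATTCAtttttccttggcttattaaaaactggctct
Counted from the RefSeq start, the matches span bases 101 to 95 upstream in Hmcn2, 55 to 49 in Tnxb, 142 to 136 in Tnfaip6 and 177 to 171 in Cp. The 3 matrix genes kept at most 0.0807% of their freshly isolated mean in culture, and Cp 0.485% in proliferating cells and 1.49% in myotubes. Of the other genes with a match, Lif kept 1.25% and 1.49%, P2ry14 0.708% and 0.396% and Gfpt2 0.442% and 0.198%. Gbp2 kept 0.126% and 0.663%, and Galnt15 0.114% and 0.170%. A match is a string of letters and was not tied to binding by any measurement here.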

How the data were processed

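RNA sequencing of 9 libraries was analysed, 3 per stage. Per the submitters' processing notes, STAR 2.4.0a and featureCounts 1.4.5-p1 of Subread were used with mm10 (GRCm38). Per the labels' protocols, 100 ng of RNA entered ribosomal depletion (RiboGone) and SMARTer Stranded Total RNA library preparation. For the strand setting and the normalization tool, nothing is stated: they are not given in the sources used here. As deposited by the authors, the score values are whole numbers made from read counts by scaling between libraries, so no count model was used. Columns with the prefix QSC were taken as freshly isolated by elimination.

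The 17291 genes with values of 10 or above in 3 or more libraries were fitted on log2(value + 1) with limma 3.58.1 (R 4.3.3, mean-variance trend), all 9 libraries in 1 model, Benjamini-Hochberg over all genes, threshold 0.05. Between cultured stages, tests were read only for members whose cultured libraries alone met that filter with both stages at 10 or above, a condition set after seeing the data. P-values measure the spread between these samples. The script was tested on simulated data.

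Positions are from GENCODE vM21 (45143 genes matched). The genes, their roles and the lists were chosen with earlier results of these data known. Genes named by rule were Medag and Itih5, the 25 highest, the 6 largest rises and falls between cultured stages, the 3 nearest each limit on both sides, the 3 widest and narrowest in spread, members on a list, and per list the 2 highest others. The results of 2 members are not reported here. Further members, and markers, were named after their values were seen. Other steps used numpy 2.4.6, pandas 2.3.3 and matplotlib 3.10.9 in Python 3.11.15.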

Additional observations from a re-analysis of the deposited data

How the results depend on the processing

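Selecting at 1% or 5% of the freshly isolated mean in place of 2% gave 59 or 175 genes. A level of 200 or 1000 in place of 500 gave 129 or 70, medians in place of means 95 (93 shared), and equal library totals 83. Leaving out each library in turn gave 91 to 96 genes.

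In a model of the cultured stages alone, 14 of the 47 tested genes were higher and 10 lower in myotubes. Leaving out each library in turn gave 10 to 16 higher and 9 to 12 lower. Without both freshly isolated library 1 and proliferating library 1, an alternative chosen after seeing the data, 16 were higher and 12 lower. Pseudocounts of 0.5 and 5 each gave 14 and 10. Of the 24 calls, 18 held under every alternative run and none reversed. The 6 lost under at least 1 were those of Card10, P2ry14, Parp14, S1pr3, Tenm4 and Tnxb.

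Over all genes, leaving out each library in turn gave 4164 to 5961 higher and 3695 to 5343 lower in myotubes than in proliferating cells. Against freshly isolated cells it gave 5980 to 6810 higher and 5769 to 6608 lower in proliferating cells, and 6517 to 7262 higher and 6053 to 6870 lower in myotubes. Setting all library totals equal moved the median log2 difference of all genes from 0.04 to -0.12 (myotubes against proliferating), from 0.07 to 0.37 (proliferating against freshly isolated) and from 0.10 to 0.24 (myotubes against freshly isolated).

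Replicate numbers are not stated to pair the samples. Correlations of same-numbered deviations from the stage means ran from -0.0338 to 0.027, and those of other pairs from -0.0575 to 0.0585. With 3 libraries per stage, these values cannot exclude shared animals. With the replicate block, 14 and 11 of the 47 tested genes and 4843 and 4245 of all genes were called higher and lower in myotubes, and no call among the 47 was lost. Depth limits the cultured levels, where 30 of the 95 genes were under 10 in all 6 libraries.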
